A study of Mus musculus with 16 samples.

Results

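Luteinizing hormone (LH) and follicle-stimulating hormone (FSH) are pituitary hormones that drive the ovary, and 4 genes that gonadotroph cells use to make them and to respond to the brain are described here. They were taken by name, *Lhb* for the beta subunit of LH, *Fshb* for the beta subunit of FSH, *Cga* for the alpha subunit that both hormones share, and *Gnrhr* for the receptor of gonadotropin-releasing hormone (GnRH). All 4 were among the 17362 genes listed in the pituitary data and all 4 were among the 14345 genes tested.

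Pituitary RNA came from 16 female mice of 27 weeks of age, with 1 library per mouse and 4 mice in each of 4 groups. Controls were Esr1fl/fl females, which carry the floxed gene for oestrogen receptor alpha (ERα) and no Cre, and they were fed chow (called SD, for standard diet) or a high-fat diet (HFD) for 17 weeks from 10 weeks of age. Mutants were Esr1Nkx2-1Cre females, in which Cre under the *Nkx2-1* gene removes *Esr1* from cells with a history of *Nkx2-1* expression, among them much of the ventral hypothalamus and the posterior lobe, and they were fed the same 2 diets. All mice were of a mixed CD-1 and 129P2 background, and the labels give no stage of the oestrous cycle. The labels name the tissue only as pituitary and do not say which lobes were taken or which cells carry the deletion.

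Gonadotrophs respond to pulses of GnRH, which reach them from the hypothalamus through portal blood. Their receptor signals through Gq and phospholipase C to protein kinase C, calcium and MAP kinases, and immediate early factors such as EGR1 and AP-1 then act on the subunit genes together with the factors SF-1 (gene *Nr5a1*) and PITX1. Oestradiol acts on this axis in the brain and in the gland, and activin raises *Fshb* transcription while inhibin and follistatin oppose it. Each hormone is a dimer of the alpha subunit with its own beta subunit, and the beta subunit is usually the limiting chain.

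The promoters are shown because these 4 genes are textbook targets of the factors above. Each run is 250 bases before to 50 after the RefSeq start of the gene in build GRCm38.p6, written in the direction of transcription, with motif matches in capitals. *Lhb* is read from chr7:45420696-45420995 (plus strand), *Fshb* from chr2:107059602-107059901 (minus), *Cga* from chr4:34893529-34893828 (plus) and *Gnrhr* from chr5:86197852-86198151 (minus).
Lhb: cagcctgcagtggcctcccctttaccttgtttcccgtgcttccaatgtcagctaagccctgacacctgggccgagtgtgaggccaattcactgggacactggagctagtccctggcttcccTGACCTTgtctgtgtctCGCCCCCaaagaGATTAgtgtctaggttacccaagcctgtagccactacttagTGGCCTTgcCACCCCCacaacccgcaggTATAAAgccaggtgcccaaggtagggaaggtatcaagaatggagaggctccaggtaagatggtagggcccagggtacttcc
Fshb: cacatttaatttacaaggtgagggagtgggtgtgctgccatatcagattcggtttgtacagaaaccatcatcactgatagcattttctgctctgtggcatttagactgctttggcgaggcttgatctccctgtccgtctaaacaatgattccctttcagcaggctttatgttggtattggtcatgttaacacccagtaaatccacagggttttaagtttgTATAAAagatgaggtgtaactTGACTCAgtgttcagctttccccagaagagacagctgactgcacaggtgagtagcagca
Cga: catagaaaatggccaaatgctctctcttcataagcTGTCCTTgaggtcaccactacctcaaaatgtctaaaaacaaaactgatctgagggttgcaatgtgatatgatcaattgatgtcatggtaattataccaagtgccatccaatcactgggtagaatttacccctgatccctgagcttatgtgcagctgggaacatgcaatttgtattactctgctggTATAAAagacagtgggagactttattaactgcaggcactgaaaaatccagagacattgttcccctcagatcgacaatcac
Gnrhr: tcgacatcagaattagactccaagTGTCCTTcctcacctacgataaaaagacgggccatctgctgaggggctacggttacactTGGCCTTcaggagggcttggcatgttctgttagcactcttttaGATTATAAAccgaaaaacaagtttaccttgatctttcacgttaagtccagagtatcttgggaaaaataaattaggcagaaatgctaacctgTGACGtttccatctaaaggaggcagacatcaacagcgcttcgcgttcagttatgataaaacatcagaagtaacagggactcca
In *Lhb*, an SF-1 motif (TGNCCTT) began 129 bases and again 59 bases before the start, each followed by an EGR1 motif (CNCCCCC) at 112 and 50 bases before it. A PITX motif (TAATC, here on the other strand) lay between these pairs at 100 bases before the start, and a TATA box (TATAAA) at 31. The GENCODE annotation starts *Lhb* further upstream, at 45420820, and by it all of these matches but the first lie inside the gene. *Fshb* held a TATA box at 30 and an AP-1 motif (TGANTCA) at 9 bases before its start. *Cga* held an SF-1 motif at 215 and a TATA box at 30. *Gnrhr* held SF-1 motifs at 226 and 167, a PITX motif at 124 that overlaps a TATAAA match at 121, and the core of a cAMP response element (TGACG) at 33. The palindromic oestrogen response element, GGTCA and TGACC with any 3 bases between them, was in none of the 4 windows. Of 32817 promoters of the same length, 20.3% held the SF-1 motif, 34.2% the EGR1 motif, 22.0% the PITX motif, 7.81% the AP-1 motif, 20.8% the core of the cAMP element, 8.32% a TATAAA and 0.0701% the oestrogen element, searched on both strands except for TATAAA. A match describes these letters and says nothing about binding in these mice.

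Expression was given as 1 normalized signal for each gene and mouse, here in units, and in genes with 1 transcript the size of 1 read fell with transcript length, so levels of different genes are on a scale per length. Their sum per library was between 908897 and 1335782, and the 4 genes together took between 0.438% and 0.899% of it. All 5 markers fixed for gonadotrophs (*Lhb*, *Fshb*, *Gnrhr*, *Nr5a1* and *Tgfbr3l*) were above 0 in every mouse, with a summed level between 500.1 and 1762 units. The total number of reads is not given in the sources used here. By the step of 1 read, estimated from 1457 genes, *Fshb* rested on between 169 and 7338 reads per library, which gives a counting error of 1.17% to 7.69% and covers counting only.

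The deleted gene was checked first. *Esr1* was 40.5, 46.6, 39.4 and 29.0 units in the control SD mice (P356, P358, P359 and P383) and 10.02, 22.2, 20.5 and 21.8 in the mutant SD mice (P357, P381, P382 and P384). It was 23.6, 43.4, 42.7 and 39.6 in the control HFD mice (P385, P390, P391 and P392) and 33.4, 27.9, 33.0 and 21.5 in the mutant HFD mice (P339, P341, P387 and P388), and every list of values below keeps this order of mice. The SD groups did not overlap, whereas the library labelled control HFD P385 lay among the mutants on HFD. Whether the label of P385 is right was not tested. The 29.0 of control SD P383 also lay within the range of the mutants on HFD. In P385 the summed endothelial (74.2) and immune (19.2) markers, described next, were the lowest of all mice, on the side of the controls. P392 lay apart from the other controls in markers of the next paragraph, while its *Esr1* was at their level. Whether tissue sampling or a wrong label set P392 apart was not tested. Differences between genotypes on HFD rest on groups as labelled.

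A pair of libraries stood apart, and several results that rest on them are given with and without them. The summed level of *Nkx2-1* and *Rax*, which mark the posterior lobe, was 0 in control HFD P392 and 0.414 in mutant SD P357, against 2.22 to 5.56 units in the other 14 mice. The summed level of the endothelial markers *Pecam1*, *Plvap* and *Kdr* was 142 in P392, between 74.2 and 99.0 in the other 7 controls and between 118 and 168 in the 8 mutants, so P392 lay within the mutants. The summed level of the melanotroph markers *Pax7*, *Pcsk2* and *Oacyl* was 40.6 in P392 and 12.7 in P357, against 99.4 to 255 in the others. P357 had the highest sum of values and 533 genes at 0, the most of any library. None of the 3 immune markers was at 0 in any mouse, and their summed level was 66.1 in P392, between 19.2 and 40.7 in the other controls and between 39.8 and 110 in mutants. Averaged over diets, *Pecam1* (0.60, SE 0.13), *Plvap* (0.43, SE 0.11) and the immune marker *C1qa* (0.92, SE 0.26) were higher in mutants, with adjusted p between 0.0175 and 0.0466 from limma and calls kept in 16, 8 and 2 of 16 fits with 1 mouse left out. The part that tissue sampling or these cell types play in the results below was not tested, and in bulk tissue fewer gonadotrophs and less RNA per gonadotroph cannot be told apart.

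*Cga* (ENSMUSG00000028298, GRCm38 chromosome 4, 34893779 to 34907370, plus strand, 3 transcripts) encodes the alpha subunit of LH, FSH and thyroid-stimulating hormone, so thyrotrophs express it too. It shares 305 exonic bases with *Platr9* on the opposite strand. Its mean over the 16 mice was 5908 units, the 7th highest of the 14345 genes tested. Values were 4552, 5114, 4242 and 5137 in control SD mice and 9479, 6113, 5575 and 4984 in mutant SD mice. On HFD they were 7046, 5825, 6532 and 8579 in controls and 4338, 3968, 7147 and 5892 in mutants. The lowest control on HFD was above the highest control on SD, while every other pair of groups compared overlapped. Mean levels were 4761 ± 439 in control SD, 6538 ± 2015 in mutant SD, 6995 ± 1169 in control HFD and 5336 ± 1467 in mutant HFD mice (SD, n = 4).

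In controls, *Cga* was higher on HFD than on SD by 0.55 on the log2(value + 0.5) scale, with a standard error (SE) of 0.22. The exact permutation test, two-sided, gave p = 0.0286 for it, the smallest that 4 against 4 allow, and an adjusted p = 0.305 over the 16 tests of 4 genes in 4 comparisons. Over all genes the adjusted p from limma was 0.998, and 0% of genes tested were called in that comparison at an adjusted p under 0.05, with 592 genes at an unadjusted p under 0.05. Without P392 the difference was 0.44. All 4 controls on HFD were numbered P385 to P392, while 3 of 4 controls on SD were P356 to P359. Diet and animal number thus largely coincide in controls. Against P383, the 1 control on SD with a higher number, the difference was 0.43. In mutants the diet difference of *Cga* was -0.29 (SE 0.22). The genotype difference was 0.42 on SD and -0.42 on HFD (SE 0.22 each), and the difference between these, the interaction of genotype and diet, was -0.83 (SE 0.31, unadjusted p = 0.0176 and adjusted p = 0.924 from limma). Without P392 and P357 the interaction of *Cga* was -0.54, a smaller size by over 1.5 times. Without P357 its genotype difference on SD was 0.22 and its diet difference in mutants was -0.09. Without P392 its genotype difference on HFD was -0.31. *Tshb*, the beta subunit of thyroid-stimulating hormone, was 338 ± 89.4 in control SD, 413 ± 202 in mutant SD, 259 ± 29.1 in control HFD and 273 ± 77.5 in mutant HFD mice (SD, n = 4), and was not called in any comparison.

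*Lhb* (ENSMUSG00000100916, chromosome 7, 45420820 to 45421897, plus strand, 1 transcript of 678 bp in 3 exons) encodes the chain that makes LH out of the alpha subunit. Its mean over all mice was 794 units, the 82nd highest. Values were 921, 806, 891 and 1158 units in control SD mice and 1198, 899, 734 and 584 in mutant SD mice. They were 1343, 1035, 986 and 473 in control HFD mice and 283, 357.96, 360 and 675 in mutant HFD mice. The first 3 mutants on HFD had the 3 lowest values of all 16 mice, and the 4th lowest was the control HFD P392. Group means were 944 ± 151 in control SD, 854 ± 263 in mutant SD, 959 ± 361 in control HFD and 419 ± 174 in mutant HFD mice (SD, n = 4).

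On HFD, *Lhb* was lower in mutants than in controls by a log2 difference of -1.18 (SE 0.31), with an unadjusted p = 0.00153 and an adjusted p = 0.211 from limma. The groups overlapped through P392 and P388, and the exact permutation test, two-sided, gave p = 0.0571 (adjusted p = 0.305). No gene passed in this comparison, 0% of those tested, although 1461 had an unadjusted p under 0.05. Without P392 the difference was -1.49 (SE 0.27, adjusted p = 0.00499 from limma), and 4.55% of genes tested were then called. Without P392 and P357 it was -1.49 with an adjusted p = 0.00240 from limma, beside 7.42% of genes called. Leaving out any other single mouse kept the adjusted p above 0.05, with differences between -0.98 (without P385) and -1.43 (without P388). Within the upper range of animal numbers, P381 to P392, the difference was -0.86 between 2 mutants and 4 controls, and no control on HFD had a number in the lower range, P339 to P359.

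**Figure D1:**
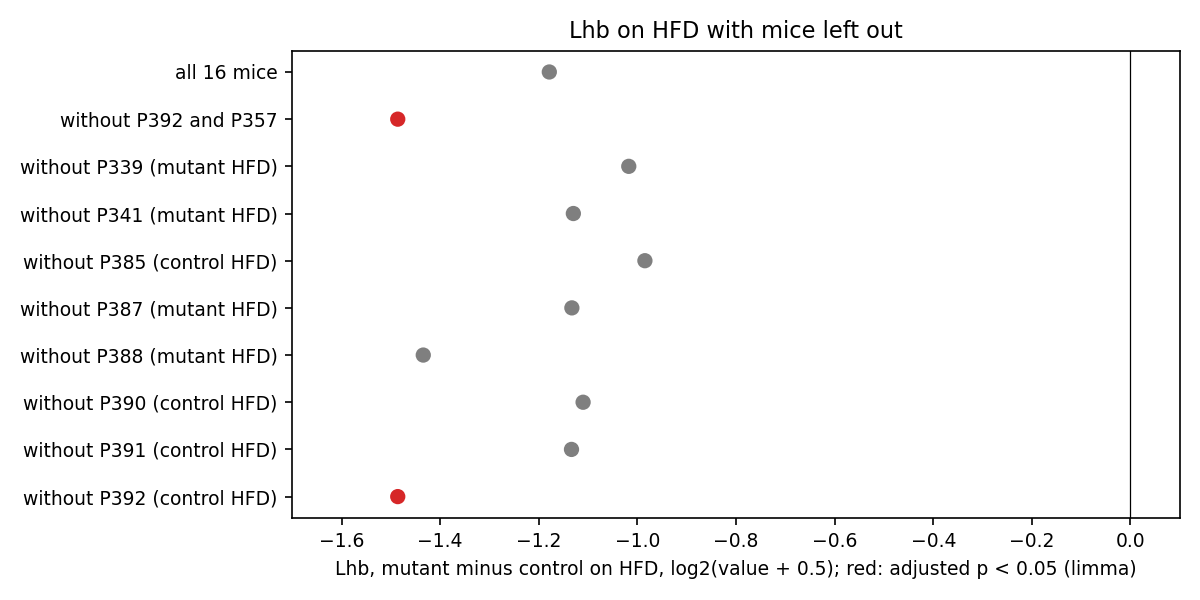
Difference of *Lhb* between mutants and controls on HFD, in log2(value + 0.5) from limma, with all 16 mice and with mice left out; each point is 1 fit and red marks an adjusted p under 0.05. The difference was -1.18 with all mice and passed the threshold only in the fits without P392, at -1.49.

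In mutants, *Lhb* was lower on HFD than on SD by a log2 difference of -1.06 (SE 0.31, unadjusted p = 0.00352 and adjusted p = 0.813 from limma), and these groups overlapped through P388 and P384. In this comparison 0% of genes were called and 717 had an unadjusted p under 0.05. Without P357 the diet difference of *Lhb* in mutants was -0.88. In controls the diet difference was -0.06 (SE 0.31) with all mice and 0.25 without P392, so its sign rests on that library. On SD the genotype difference was -0.18 (SE 0.31, adjusted p = 0.775 from limma). The interaction for *Lhb* was -0.996 (SE 0.44, unadjusted p = 0.0364 and adjusted p = 0.924 from limma), in a test where 0% of genes were called and 602 had an unadjusted p under 0.05. The lower *Lhb* of mutants on HFD was therefore not shown to differ from the genotype difference on SD. Averaged over both diets, the genotype difference was -0.68 (SE 0.22, adjusted p = 0.0733 from limma), beside 6.54% of genes called. This average passed the threshold without P392 (-0.83, adjusted p = 0.00708, 13.5% of genes called), without P357 (-0.77, adjusted p = 0.0421), without P388 (-0.81, adjusted p = 0.0346) and without both P392 and P357 (-0.92, adjusted p = 0.00256, 18.6% of genes called), all from limma.

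The 3' end of *Lhb* shares 138 exonic bases with *Ruvbl2* on the opposite strand, and whether counting used the strand is not given in the sources used here. *Ruvbl2* was between 17.7 and 28.6 units in all mice, its group means ran from 22.5 to 24.4 units, and its part in the values of *Lhb* was not tested.

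*Fshb* (ENSMUSG00000027120, chromosome 2, 107056140 to 107059656, minus strand, 1 transcript of 1600 bp) encodes the chain that makes FSH. It was the most variable of the 4 genes. Values were 13.2, 48.4, 114 and 284 units in control SD mice and 56.0, 54.9, 38.6 and 28.7 in mutant SD mice. On HFD they were 21.1, 11.7, 7.34 and 34.8 in controls and 40.7, 39.7, 19.6 and 24.2 in mutants. The control SD group alone spanned both the 3rd lowest and the highest value of the 16 mice. The residual SD of *Fshb* within groups was 1.10 on the log2 scale, against a median of 0.26 over all genes tested, and 98.4% of genes had a smaller one. That figure was 84.7% for *Lhb* (SD 0.49), 81.3% for *Gnrhr* (SD 0.45) and 63.2% for *Cga* (SD 0.31).

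Mean *Fshb* was 115 ± 120 in control SD, 44.5 ± 13.2 in mutant SD, 18.7 ± 12.2 in control HFD and 31.0 ± 10.7 in mutant HFD mice (SD, n = 4), and all groups compared overlapped. In controls it was lower on HFD than on SD by a log2 difference of -2.06 (SE 0.68, unadjusted p = 0.00837 and adjusted p = 0.998 from limma). That difference was -1.37 without P383, the mouse with the highest *Fshb*, and -2.83 without P356. Within the upper range of animal numbers, P381 to P392, it was -4.12, between 4 controls on HFD and P383 alone on SD. The diet difference in mutants was -0.53, and the genotype difference was 0.87 on HFD and -0.65 on SD (SE 0.68 each). On SD the sign rested on P383, since the difference was 0.04 without it. The interaction for *Fshb* was 1.53 (SE 0.96, adjusted p = 0.924 from limma).

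*Gnrhr* (ENSMUSG00000029255, chromosome 5, 86180754 to 86197901, minus strand, 3 transcripts) encodes the G protein-coupled receptor through which GnRH acts on gonadotrophs. Values were 51.4, 62.5, 62.3 and 50.8 units in control SD mice and 24.7, 91.9, 73.8 and 70.1 in mutant SD mice. They were 55.4, 71.9, 62.9 and 75.6 in control HFD mice and 64.2, 60.2, 61.8 and 77.3 in mutant HFD mice. The lowest and the highest of the 16 values, in P357 and P381, were both in mutants on SD, and the other 3 groups lay between 50.8 and 77.3. Group means were 56.8 ± 6.54, 65.1 ± 28.6, 66.5 ± 9.07 and 65.9 ± 7.81 units in control SD, mutant SD, control HFD and mutant HFD mice (SD, n = 4).

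None of the comparisons of 2 groups moved *Gnrhr* by more than 0.22 on the log2 scale (SE 0.28). The genotype difference on SD was 0.05 (SE 0.28, adjusted p = 0.937 from limma) with all mice. Without P357 it was 0.46, with every remaining mutant on SD above every control on SD, and an adjusted p = 0.0895 from limma. Without P392 and P357 it was 0.46 with an adjusted p = 0.0470 from limma, beside 6.70% of genes called. On HFD the genotype difference of *Gnrhr* was -0.01 (SE 0.28).

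**Figure D2:**
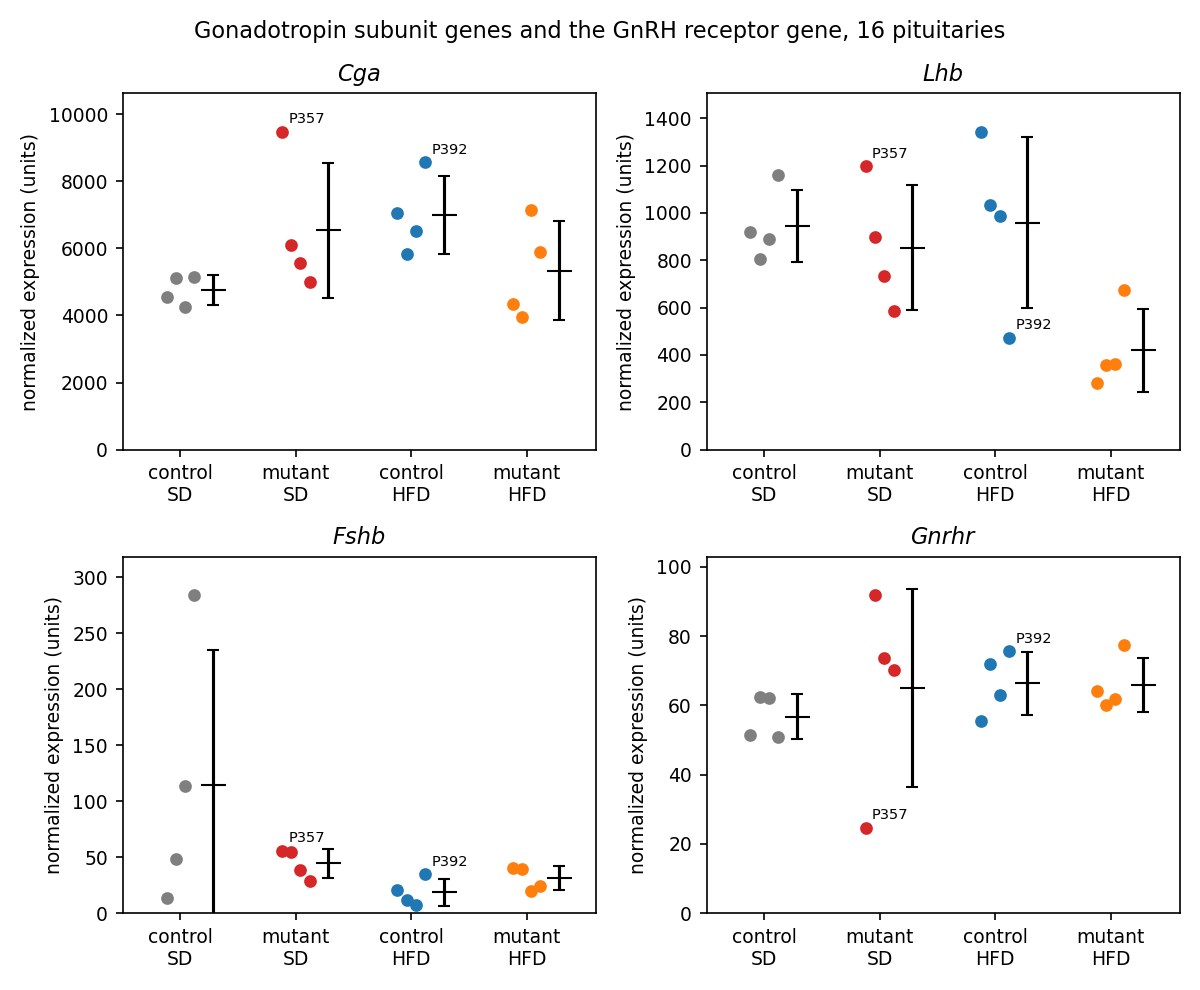
Normalized expression in units (y axis) of the 4 genes in each mouse (points), by genotype and diet, with the group mean and SD beside the points (the bar of *Fshb* in control SD mice runs below 0 and is drawn from 0). *Lhb* was 283 to 675 units in mutants on HFD and 473 to 1343 in controls on HFD, *Cga* did not overlap between the control groups, and P357 and P392 are named.

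Across the members, 0 of the 4 genes passed limma's adjusted threshold in any of the 6 comparisons with all 16 mice, where 1.84% of genes tested were called between genotypes on SD. At an unadjusted p under 0.05 were *Lhb* on HFD between genotypes, *Lhb* between diets in mutants, *Fshb* and *Cga* between diets in controls, *Cga* and *Lhb* for the interaction and *Lhb* for the genotype difference averaged over diets. The exact permutation tests, two-sided, called 0 of 16 after adjustment and 1 of 16, *Cga* between diets in controls, before it. The smallest p that this test allows with 4 against 4 mice is 0.0286. After adjustment a test could pass only if most of the 16 reached that p, so the 0 says little. Ordered by mean level, groups that were neighbours in the order did not differ by the exact permutation test, two-sided, in any of the 4 genes, and the smallest p was 0.0571, for *Lhb* in mutant SD over mutant HFD mice.

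**Figure D3:**
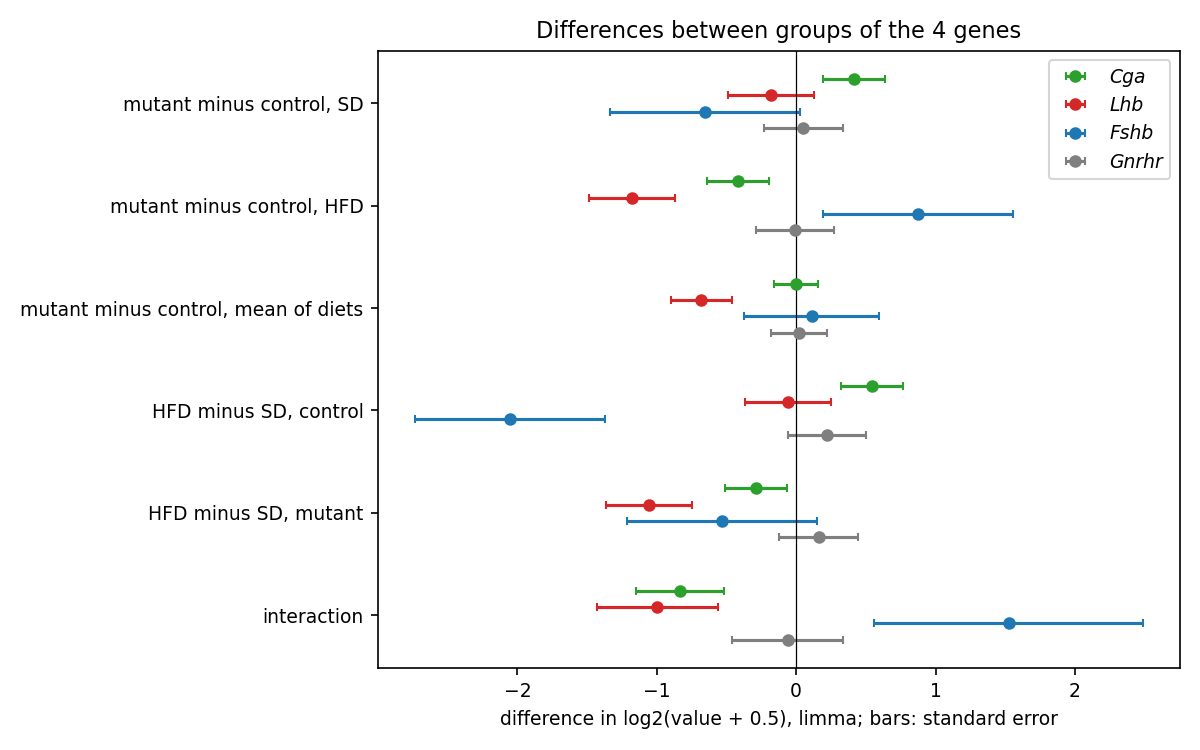
Difference in log2(value + 0.5) between groups for the 4 genes (points) with its standard error from limma (bars), for genotype, diet and their interaction. *Lhb* was lower in mutants on HFD (-1.18), *Fshb* was lower on HFD in controls (-2.06) with the widest errors, and *Gnrhr* stayed within 0.22 of 0 in the comparisons of 2 groups.

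Ratios of 2 genes within 1 library do not depend on how libraries were scaled. The ratio of *Lhb* to *Cga* was 0.202, 0.158, 0.210 and 0.225 in control SD mice and 0.126, 0.147, 0.132 and 0.117 in mutant SD mice. It was 0.191, 0.178, 0.151 and 0.0552 in control HFD mice and 0.0653, 0.0902, 0.0504 and 0.114 in mutant HFD mice. Every mutant on SD was below every control on SD, and every mutant on HFD was below every mutant on SD. The log2 difference between genotypes on SD was -0.60 and that between diets in mutants was -0.77, each with p = 0.0286 in the exact permutation test, two-sided, and an adjusted p = 0.286 over the 24 ratio tests. On HFD the genotype difference was -0.76, and the groups overlapped through P392 (exact permutation test, two-sided, p = 0.171). Without P392 that difference was -1.17. Of the 24 tests 0 passed after adjustment and 2 had an unadjusted p under 0.05. Those 2 were at the smallest p that 4 against 4 mice allow in the exact permutation test. A ratio could pass after adjustment only if most of the 24 tests reached that p, so the 0 says little.

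The ratio of *Lhb* to *Fshb* ranged from 4.08 to 69.7 in control SD mice and only from 16.4 to 21.4 in mutant SD mice. On HFD it was 63.6, 88.8, 134 and 13.6 in controls and 6.97, 9.02, 18.3 and 27.8 in mutants, so that 3 of 4 controls lay above all mutants and P392 lay among them. The genotype difference of this ratio on HFD was -2.05 on the log2 scale (p = 0.0857 and adjusted p = 0.286 in the two-sided exact permutation test). For *Fshb* to *Cga*, the difference between diets in controls was -2.60 (p = 0.0857 and adjusted p = 0.286 in the two-sided exact permutation test).

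**Figure D4:**
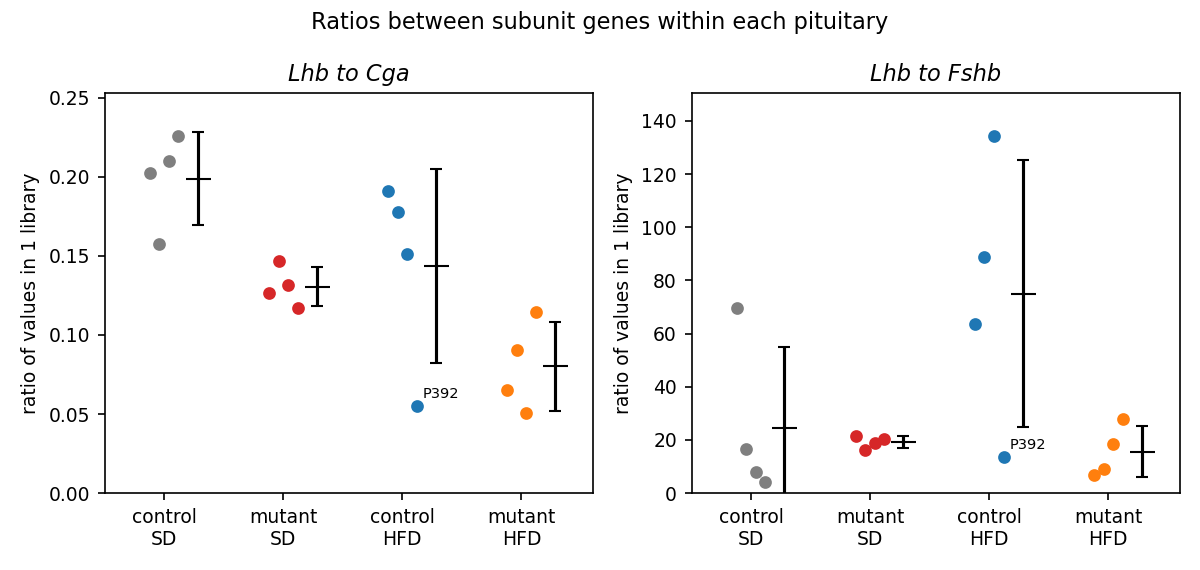
Ratio of *Lhb* to *Cga* (left) and of *Lhb* to *Fshb* (right) in each library (points), with group mean and SD (the lower bar of the right panel in control SD mice runs below 0 and is drawn from 0). For *Lhb* to *Cga*, mutants on SD (0.117 to 0.147) lie below controls on SD (0.158 to 0.225) and above mutants on HFD (0.0504 to 0.114), and P392 lies at 0.0552.

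The 4 genes did not vary together across mice to a degree that passed a test. Over 16 mice Pearson's r was 0.27 for *Lhb* with *Cga* (Spearman's rho 0.35), -0.32 for *Lhb* with *Gnrhr* (rho -0.40), -0.31 for *Cga* with *Gnrhr* (rho 0.09) and 0.07 for *Lhb* with *Fshb* (rho -0.003). *Fshb* had r = -0.20 with *Cga* (rho -0.24) and r = -0.18 with *Gnrhr* (rho -0.17). The permutation test gave an adjusted p of at least 0.551 for r and at least 0.548 for rho over the 6 pairs. Without the 2 mice farthest from the median of the first gene, r turned to -0.10 for *Lhb* with *Cga* and to 0.23 for *Cga* with *Gnrhr*, the latter without P357 and P392, and the other 4 kept their sign. With group means removed, r was 0.25 for *Lhb* with *Cga*, -0.36 for *Lhb* with *Gnrhr* and -0.49 for *Cga* with *Gnrhr*, and the smallest adjusted p was 0.657.

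The gene most like *Lhb* across the 16 mice was *Tgfbr3l*, an inhibin co-receptor of gonadotrophs, with r = 0.93 (rho 0.91) and r = 0.91 after group means were removed. Without the 2 mice farthest from the median of *Lhb* the value was 0.92, and without P392 and P357 it was 0.93. *Tgfbr3l* was 154, 197, 190 and 247 units in control SD mice and 255, 213, 148 and 149 in mutant SD mice. It was 227, 215, 214 and 94.6 in control HFD mice and 98.4, 96.8, 82.7 and 197 in mutant HFD mice. As with *Lhb*, P392 lay with the low mutants on HFD, and P388 was the highest of that group. On HFD the genotype difference of *Tgfbr3l* was -0.66 (SE 0.30, adjusted p = 0.467 from limma) with all mice and -0.97 (adjusted p = 0.0488 from limma) without P392. Without P385, the control on HFD with the lowest *Esr1*, it was -0.55 (adjusted p = 0.617 from limma). The next most like *Lhb* were *Ctxn1* (r = 0.90) and *Ppp1r16a* (r = 0.89).

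**Figure D5:**
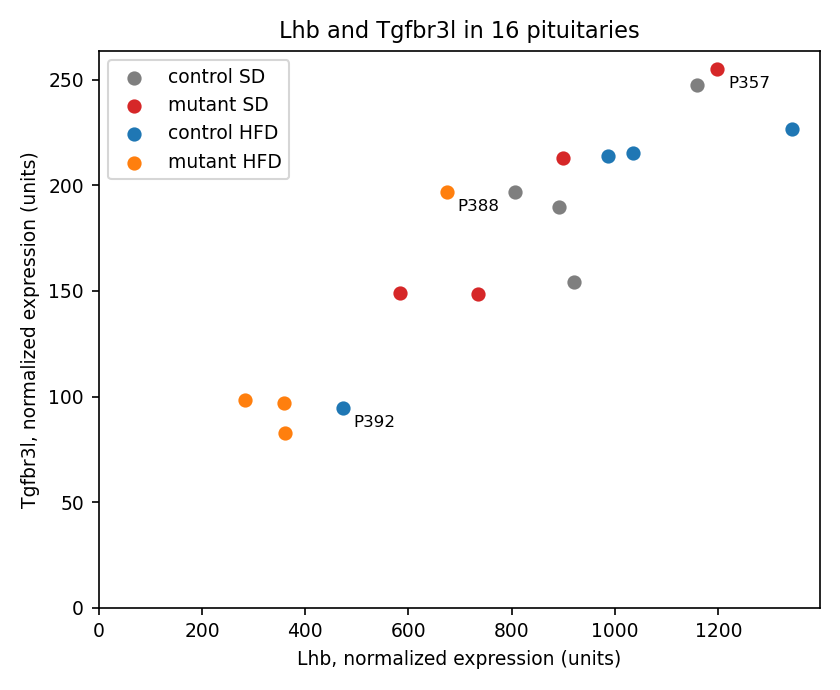
*Tgfbr3l* against *Lhb*, both in units of normalized expression, in 16 mice coloured by group. The 2 genes rise together (r = 0.93 on the log2 scale), with P392 at 473 units of *Lhb* beside 3 of the mutants on HFD and P388 at 675.

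*Fshb* was most like *Lama1* (r = 0.79), *Obsl1* (r = 0.79) and *Tarbp1* (r = 0.76). *Cga* was most like *Abt1* (r = 0.86), *S100a1* (r = 0.83) and *Orc1* (r = 0.81), and *Gnrhr* most like *Rab11fip1* (r = 0.93), *Enpp5* (r = 0.92) and *Foxk1* (r = 0.92). Without both P392 and P357 the values for *Gnrhr* were 0.72, 0.69 and 0.72. These correlations are over the same 16 libraries and were chosen as the highest of all genes tested, so they carry no p.

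The wider pathway was read from 6 gene lists, each given as counts beside the share over all 14345 genes tested. Called between genotypes were 1.37% of all genes as higher and 0.474% as lower in mutants on SD, 0% on HFD, and 4.48% as higher and 2.06% as lower averaged over diets. An unadjusted p under 0.05 was found for 19.9% of all genes on SD and 10.2% on HFD. Of 11 gonadotroph regulators tested, 0 were called by limma in any comparison, and between genotypes 2 had an unadjusted p under 0.05 on SD and 2 on HFD, shares of the list near the 19.9% and somewhat above the 10.2% of all genes. *Nr5a1*, the gene for SF-1, was 16.8 ± 3.10, 17.0 ± 1.78, 18.6 ± 1.16 and 16.8 ± 2.43 units in control SD, mutant SD, control HFD and mutant HFD mice (SD, n = 4), with a genotype difference of -0.15 (SE 0.13, adjusted p = 0.762 from limma) on HFD, where *Lhb* was lower. The list's largest differences between genotypes on SD were in *Isl1* (0.64), *Gata2* (-0.59) and *Egr1* (-0.46), none past the threshold. *Egr1* was 32.5 ± 15.1, 35.5 ± 44.1, 19.999 ± 16.5 and 25.2 ± 17.1 units in the same order of groups (SD, n = 4). The list's median difference on HFD was -0.15, against 0.02 over all genes.

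Of 18 genes of GnRH receptor signalling, 0 were called by limma between genotypes in a single diet, with 5 at an unadjusted p under 0.05 on SD (19.9% of all genes) and 2 on HFD (10.2% of all genes, a share near theirs). Averaged over diets, 3 were higher and 1 lower in mutants, beside 4.48% and 2.06% of all genes. *Prkcd* (0.45, SE 0.11) and *Prkca* (0.34, SE 0.09) encode protein kinases C, *Plcb3* (0.32, SE 0.09) a phospholipase C, and *Itpr3* (-0.71, SE 0.18) an inositol trisphosphate receptor, with adjusted p between 0.0222 and 0.0476 from limma. Their signs held with any 1 mouse left out, but the call did so in 13 of 16 such fits for *Prkcd*, 6 for *Itpr3*, 3 for *Prkca* and 2 for *Plcb3*. The list's median for that comparison was 0.01, against 0.002 over all genes. Other members of these families differed in direction, and none of them was called between genotypes in a single diet. *Plcb1*, also a phospholipase C, was -0.79 on SD (SE 0.22, adjusted p = 0.0706 from limma) and -0.21 on HFD. Of 2 further protein kinases C, *Prkcb* was -0.19 on SD and -0.16 on HFD, and *Prkce* was 0.19 and 0.35.

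Of 14 immediate early genes, 2 were higher in mutants on SD and 0 lower, beside 1.37% and 0.474% of all genes. *Jun* was 11.3 ± 2.27 in controls and 26.2 ± 9.998 in mutants (SD, n = 4), a difference of 1.14 (SE 0.28, adjusted p = 0.0466 from limma), and *Jund* differed by 0.53 (SE 0.13, adjusted p = 0.0456 from limma). Both encode AP-1 subunits, and each call held in 4 of 16 fits that left out 1 mouse. Averaged over diets *Jund* was higher in mutants by 0.40 (SE 0.09, adjusted p = 0.0181 from limma), a call kept in 16 of 16 such fits. On HFD 0 were called by limma and 0 had an unadjusted p under 0.05, with 14 of 14 differences above 0, against 53.9% of all genes, and a median of 0.45 against 0.02. On SD 10 of 14 were above 0, against 49.0% of all genes, with a median of 0.13 against -0.007, and *Fos* (-0.21), *Egr1* (-0.46), *Egr3* (-1.16) and *Nr4a1* (-0.21) were below 0. In both diets these signs come from the same mice, so the 14 genes are not independent observations. On HFD, for example, *Fos* and *Jun* were both lowest in P390 among controls and both highest in P387 among mutants. *Fos* was 45.3 ± 41.9, 56.2 ± 87.3, 29.7 ± 26.2 and 55.8 ± 45.7 units in control SD, mutant SD, control HFD and mutant HFD mice (SD, n = 4), with the SD above the mean in mutant SD mice.

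Of 13 activin and inhibin genes, 1 was called, averaged over diets, where 6.54% of all genes were, so the list's share is near that of all genes. This was *Inhbb*, which encodes the beta B chain of activin B and inhibin B. It was 7.64, 5.28, 5.65 and 5.80 units in control SD mice and 8.57, 10.7, 11.9 and 9.73 in mutant SD mice. On HFD it was 5.98, 7.06, 6.36 and 13.9 in controls and 9.75, 11.4, 11.3 and 12.2 in mutants, so that every control other than P392 lay below every mutant. Averaged over diets it was higher in mutants by 0.59 (SE 0.15, adjusted p = 0.0288 from limma), and by 0.72 without P392 and 0.53 without P385 (adjusted p = 0.0556 from limma), and the call held in 5 of 16 fits that left out 1 mouse. *Inha*, the inhibin alpha chain, was 58.4 ± 5.99, 58.1 ± 20.4, 49.6 ± 5.12 and 49.5 ± 7.91 units, and *Inhba* 1.26 ± 0.422, 1.20 ± 0.244, 0.841 ± 0.211 and 1.14 ± 0.174 (SD, n = 4, same order of groups), and neither was called. *Fst*, for the activin antagonist follistatin, had group means between 0.165 and 0.534 units and was under the minimum for testing.

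Of 6 steroid feedback genes, 1 was lower on SD, beside 0.474% of all genes, and averaged over diets 1 was higher and 1 lower, beside 4.48% and 2.06%. The lower gene in both was *Esr1*, the target of the deletion, so these counts of lower genes say nothing about the rest of the list. *Esr1* was lower in mutants on SD by -1.09 (SE 0.25, adjusted p = 0.0409 from limma). That call held in 6 of 16 fits with 1 mouse left out and was lost without P357 (-0.82, adjusted p = 0.0654 from limma), while without both P357 and P392 the adjusted p was 0.0374 from limma. Averaged over diets *Esr1* differed by -0.71 (SE 0.18, adjusted p = 0.0280 from limma), a call kept in 10 of 16 such fits. Its difference on HFD was -0.34 (SE 0.25). *Pgr*, the progesterone receptor gene and a known oestrogen target, was 8.36 ± 6.03, 14.9 ± 2.87, 11.6 ± 6.53 and 19.1 ± 2.70 units in control SD, mutant SD, control HFD and mutant HFD mice (SD, n = 4), and its genotype differences of 0.98 on SD and 0.85 on HFD did not pass. *Greb1*, another oestrogen target, was higher in mutants by 0.71 (SE 0.20, adjusted p = 0.0466 from limma) averaged over diets, a call kept in 3 of 16 fits with 1 mouse left out. Of 8 glycan and granule genes, 1 was lower on SD and averaged over diets, beside 0.474% and 2.06% of all genes. This gene, *B4galnt3*, encodes an enzyme that adds N-acetylgalactosamine to glycans of the kind LH carries. It was 4.19, 14.0, 15.3 and 9.31 units in control SD mice and 1.26, 2.75, 2.44 and 3.03 in mutant SD mice, a difference of -1.87 (SE 0.44, adjusted p = 0.0449 from limma) whose call held in 5 of 16 fits with 1 mouse left out. Averaged over diets it was lower by -1.38 (SE 0.31, adjusted p = 0.0182 from limma), and that call held in 16 of 16. On HFD alone the difference of *B4galnt3* was -0.89 (SE 0.44, adjusted p = 0.520 from limma), and the groups overlapped. *Chst8*, whose product sulphates that sugar on LH, differed by 0.55 (SE 0.29, adjusted p = 0.304 from limma) on SD. *B4galnt4*, a related gene of the list with higher values, went the other way from *B4galnt3* on SD. It was 21.4 ± 2.15 units in control SD and 27.0 ± 3.25 in mutant SD mice (SD, n = 4). Its genotype difference was 0.32 on SD (SE 0.10, adjusted p = 0.107 from limma) and -0.13 on HFD (SE 0.10).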

How the data were processed

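Pituitary RNA was sequenced from 16 female mice, as 1 library per mouse. Per the labels and the paper's methods, the authors used the NEBNext Ultra II RNA kit, a NovaSeq, kallisto and sleuth with the mouse transcriptome (mm10), and versions, read totals and strand use are not given in the sources used here. What the authors deposited is 1 normalized signal for each gene and mouse, and these are not counts. Groups came from the genotype and treatment labels, and the weeks of HFD from the labels and paper.

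Of 17362 genes, those with a mean of at least 1 (14345) entered limma 3.58.1 (R 4.3.3) on the log2(value + 0.5) scale. The fit had 1 mean for each of 4 groups and a variance trend in eBayes, and p-values were adjusted by the Benjamini-Hochberg method over all genes of a comparison, with a threshold of 0.05. A difference on this scale understates that of low values. Symbols paired with 17351 genes. Single genes and ratios were compared by exact permutation tests, two-sided, and correlations by 100000 permutations (Python 3.11.15, numpy 2.4.6, scipy 1.17.1, pandas 2.3.3, matplotlib 3.10.9). The limma code was first tested on simulated data with known changes. Library depth was estimated from low values of 1457 genes with 1 transcript, and 81.3% to 93.7% of those were whole reads within 0.15 of a read; the rule that picks the step was loosened after 1 library took a smaller step. No count test was used, because genes with several transcripts gave no whole reads.

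The members and gene lists were chosen with earlier results of these data known. The genes named are the 4 members, fixed genes (*Nr5a1*, *Tgfbr3l*, *Egr1*, *Fos*, *Esr1*, *Pgr*, *Inha*, *Inhba*, *Inhbb*, *Fst* and *Tshb*), listed genes with an adjusted p under 0.05 or otherwise the 3 largest differences between genotypes on SD, and the 3 genes most like each member. *Ruvbl2*, which overlaps *Lhb*, and *Chst8*, *B4galnt4*, *Egr3*, *Nr4a1*, *Plcb1*, *Prkcb* and *Prkce*, named after their values were seen, fall outside this rule. Gene positions follow GENCODE M21 (GRCm38) and promoters RefSeq on GRCm38.p6, matched by symbol for 4 of 4 genes. The labels do not say whether mice of a group shared a cage or litter. The p-values treat the mice as independent and measure the spread between them, and a shared cage or litter was not tested. Labels carry animal numbers and no replicate numbers shared between groups. Alternatives were pseudocounts of 0.1 and 1, minimum means of 0.1 and 5 and none, 4 other scalings, a fit with no variance trend, a fit to only the 8 mice of a comparison, a covariate for the animal number range, and leaving out mice.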

Additional observations from a re-analysis of the deposited data

Results flagged for a closer look

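In groups of 4 mice, a value was marked where its gap to the nearest of the others was wide beside the range of the group (Dixon's criterion at 95%). Of 84 groups searched, over members, ratios of members and the fixed genes, 12 were marked, where about 4.2 would be by chance, and *Lhb*, *Fshb*, *Cga* and *Gnrhr* themselves were not among them. P357 accounted for 5 of the 12, P392 for 3, P384 for 2, and P356 and P388 for 1 each.

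In P392 on control HFD, *Tgfbr3l* was 94.6 units against 214 to 227 in the other 3, *Inhbb* 13.9 against 5.98 to 7.06, and *Fst* 0.987 against 0.0244 to 0.133. In P388 on mutant HFD, *Tgfbr3l* was 197 against 82.7 to 98.4. In P357 on mutant SD, *Esr1* was 10.02 against 20.5 to 22.2, and *Inha* 88.4 against 45.3 to 52.6. Its ratios to *Gnrhr* were 48.6 for *Lhb* against 8.33 to 9.94, 2.27 for *Fshb* against 0.409 to 0.598, and 384.3 for *Cga* against 66.6 to 75.5. In P384 on mutant SD, *Egr1* was 101 units against 6.74 to 21.1, and *Fos* was 187 against 7.69 to 19.1. In P356 on control SD, *Pgr* was 17.4 units against 4.56 to 5.93. Causes were not tested.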

How the results depend on the processing

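Of 304 differences of the 4 genes refitted with limma under other settings, 279 kept their direction and their side of the threshold, 20 turned in sign and 5 newly passed, and the cause was not tested. Dividing values by their sum shifted the median of all genes by over 0.1 on the log2 scale on SD (-0.173), and dividing by the sum without *Prl* and *Gh* did so too (-0.145). The 71 of 76 other counts of members called stayed at 0, and the rest were 1 (genotypes on SD and on HFD without P392 and P357; the average over diets without them, with quantile normalization and with the sum without *Prl* and *Gh*). For ratios the only other settings were pseudocounts of 0.1 and 1, which hardly move values of this size. All 48 such differences kept direction and side, which says little about other settings. Leaving out single mice turned some ratio differences in sign, as given below. No paired analysis was possible because the labels carry animal numbers and no replicate numbers.

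Without P392 and P357, *Lhb* between genotypes was -1.49 on HFD and -0.92 averaged over diets, and its diet difference in controls was 0.25; *Gnrhr* was 0.46 between genotypes on SD, 0.056 on HFD and -0.25 between diets in mutants, and *Cga* averaged over diets was -0.045. The average of *Lhb* was -0.77 with quantile normalization and -0.76 with the sum without *Prl* and *Gh*. With the sum without *Prl* and *Gh*, *Gnrhr* was -0.091 on SD, 0.067 for the interaction and -0.058 for the average, and with the sum -0.12, 0.085 and -0.078. With the number range as a covariate, *Gnrhr* was -0.19 on SD, 0.24 on HFD, -0.15 between diets in controls and 0.43 for the interaction, and with quantile normalization its average was -0.017. The average of *Cga*, 6.3e-05 with the values as deposited, was -0.0052 with median scaling, -0.24 with quantile normalization, -0.081 with the sum without *Prl* and *Gh* and -0.10 with the sum, and its diet difference in mutants was 0.0056 with quantile normalization. The exact permutation tests had no covariate, interaction or average over diets. In them *Gnrhr* on SD with either sum, and *Cga* between diets in mutants with quantile normalization, turned in sign by the same values.

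Of the correlations with group means removed, *Lhb* with *Fshb* was 0.25 with raw values and 0.23 without P392 and P357, *Fshb* with *Gnrhr* 0.013 with the sum without *Prl* and *Gh*, and without P392 and P357 *Lhb* with *Gnrhr* was 0.29, *Fshb* with *Cga* -0.059 and *Cga* with *Gnrhr* 0.11. Over all mice *Cga* with *Gnrhr* was then 0.23.

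Leaving out each mouse in turn gave these ranges. Between genotypes on SD, *Fshb* ran from -1.42 to 0.035 and *Gnrhr* from -0.16 to 0.46. On HFD, *Lhb* ran from -1.49 to -0.98 and *Gnrhr* from -0.092 to 0.056. Between diets, *Lhb* in controls ran from -0.25 to 0.25 and *Gnrhr* in mutants from -0.25 to 0.38. The interaction of *Gnrhr* ran from -0.47 to 0.15. Averaged over diets, *Lhb* ran from -0.83 to -0.58, *Fshb* from -0.27 to 0.46, *Cga* from -0.097 to 0.065 and *Gnrhr* from -0.085 to 0.23. Of the ratios on SD, *Lhb* to *Fshb* ran from -0.11 to 1.23, *Lhb* to *Gnrhr* from -0.83 to 0.016, *Fshb* to *Gnrhr* from -1.43 to 0.033 and *Cga* to *Gnrhr* from -0.24 to 0.60. Between diets, *Lhb* to *Gnrhr* in controls ran from -0.56 to 0.090, and in mutants *Fshb* to *Cga* from -0.51 to 0.11 and *Cga* to *Gnrhr* from -0.68 to 0.16. Counts of members called ran from 0 to 1 on HFD and for the average. Without P392 or without P357 alone, *Cga* with *Gnrhr* ran from -0.44 to 0.33 over all mice, and with group means removed *Cga* with *Gnrhr* ran from -0.58 to 0.25, *Lhb* with *Fshb* from -0.070 to 0.26 and *Fshb* with *Gnrhr* from -0.12 to 0.12.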
